A study of Homo sapiens with 8 samples.

Results

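Interleukins, chemokines, colony-stimulating factors and their receptors were read out across 4 groups of SAS cells, a human squamous carcinoma line of the head and neck. The set was taken by name: every gene probe of the array whose gene name was CXCL, CXCR, CCL, CCR, IL or CSF followed by a digit. It held 208 of 58201 gene probes and 152 of 43317 gene names, among them 39 chemokines and 17 chemokine receptors. The rule also took in genes that are no cytokine or receptor, such as the antisense transcripts IL10RB-AS1 and IL21R-AS1 and the amino acid oxidase IL4I1. No measured value was used to choose them.

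The study looked for miRNAs linked to cisplatin resistance, and transfected SAS cells with a mimic of miR-874-3p, of miR-629-3p or of miR-210-3p, or with a negative control miRNA (NC), each at 25 nM. Total RNA was taken 48 h after transfection according to the labels, while the methods of the study give a shorter time. There were 2 arrays in each of the 4 groups, 8 in all, and nothing states that the 2 arrays of a group came from separate cultures, so the p-values measure only the spread between these arrays. All groups came from the same single line, grown with puromycin per the labels, and the methods name its GFP-carrying SAS/GFP derivative.

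Interleukins and colony-stimulating factors are secreted proteins that act through receptors on the same cell or on neighbours, and chemokines are small secreted proteins that guide the movement of leukocytes through G-protein-coupled receptors. In squamous epithelium the IL-1 family is stored or induced in the keratinocytes themselves, IL-6 family members signal through the shared gp130 chain, and CXCL8 and its relatives attract neutrophils. A miRNA acts on transcripts that pair with its seed, the stretch near its 5′ end.

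The 3 transfected miRNAs are given here because they define the groups. The mature sequences are those of RefSeq, 5′ to 3′, with the seed (bases 2 to 8) in capitals, and the 3 seeds all differ.
miR-629-3p: gUUCUCCCaacguaagcccagc
miR-210-3p: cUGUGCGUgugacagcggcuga
miR-874-3p: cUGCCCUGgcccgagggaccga

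On GRCh38.p14 these mature sequences lie at chr15:70079387-70079408, chr11:568112-568133 and chr5:137647582-137647603, all on the minus strand. The array probes are 60-base sequences, and each was searched for the reverse complement of the seed, GGGAGAA for miR-629-3p, ACGCACA for miR-210-3p and CAGGGCA for miR-874-3p. None of the 73 tested members' probes held any of the 3, while 0.564%, 0.141% and 0.399% of the probes of all 21283 tested genes did. A probe covers only a short stretch of a transcript, so this describes the probes and not the transcripts.

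A probe counted as detected on an array when the scanner software marked it as well above background. A gene was tested when 1 or more of its probes was measured on all 8 arrays and detected on both arrays of 1 or more groups, and the brightest such probe stood for it. This left 73 of the 152 members (of 43317 gene names, 49.1% were tested). The used probe was detected on all 8 arrays for 57 of the 73 (78.1%, beside 81.8% of all tested genes). Of the other 79 members, 54 were detected on no array and 25 on at least 1, and those 25 have no test here. CXCR4, CXCL3, CXCL6, CXCL11, CXCL14, IL1R2 and IL36RN were among the 54. CXCL9, CXCL10, CCL26, IL33, IL1R1 and IL13RA2 were each detected on a single array, and CXCL10 through only 1 of its 2 probes. CCL28 was detected on all 8 arrays but lacked a usable spot on NC array 2, so it was not tested. Between 65 and 81 members were detected per array (42.8% to 53.3%), beside 44.7% to 52.1% of all gene names.

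Levels are log2 of the processed signal minus the 75th percentile of the array, so that a gene at 0 sat at that percentile. Probes differ in brightness, and levels were therefore compared between groups for 1 gene and never between genes. A member was called when its Benjamini-Hochberg adjusted p over all 21283 genes was under 0.05 in limma. The 12 squamous epithelial markers checked were detected on all 8 arrays. With miR-629-3p 5 of them (KRT14, KRT17, KRT8, KRT18 and CDH1) were lower (41.7%, beside 7.47% of all genes). With miR-210-3p 4 (KRT5, KRT14, KRT17 and SFN) were lower (33.3%, beside 2.2%), while EPCAM lay higher without a call (0.39, adjusted p = 0.052). The summed signal of the 12, in units of the 75th percentile, was 1611 to 1719 in NC cells, 1546 to 1619 for miR-874-3p, 1468 to 1476 for miR-210-3p and lowest, 1308 to 1311, for miR-629-3p. Bright probes weigh most in such a sum, KRT18 above all (log2 9.78 and 9.87 in NC cells, 9.36 and 9.35 with miR-629-3p), so it does not describe the 12 evenly. Of 11 leukocyte markers 4 to 6 were detected, PTPRC, CD14, LCP1 and TYROBP among them, with a summed signal of 8.67 to 11.1 over the 8 arrays, and MS4A1 and FCGR3A on none. Of 9 fibroblast markers 2 to 4 were detected (summed signal 1.18 to 2.97), and COL1A2, COL3A1, DCN, LUM and PDGFRA on no array. Of 8 endothelial markers 3 to 5 were detected, and TEK on none (summed signal 1.71 to 12). Of these markers VWF (0.90, adjusted p = 0.0146) and PDGFRB (0.47, adjusted p = 0.0192) were higher with miR-629-3p and FAP lower (-0.84, adjusted p = 0.0302), and PDGFRB was higher for miR-210-3p too (0.50, adjusted p = 0.0323). PECAM1 and CD2 were detected on both arrays for miR-629-3p alone. All samples were of a single cell line, so the marker names do not mean that such tissue cells were present. In such bulk samples fewer cells expressing a marker and less RNA per cell cannot be told apart. The share of these marker shifts in the results was not tested. The 8 arrays shared 1 slide, miR-629-3p and miR-210-3p on its row 1 and miR-874-3p and NC on its row 2, so for the first 2 miRNAs the change against NC and the slide row cannot be told apart, while miR-629-3p against miR-210-3p and miR-874-3p against NC lay within a row.

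Across the 4 groups, 23 of the 73 tested members differed (31.5%, beside 25.2% of all tested genes). Transfection of miR-629-3p moved 22 members against NC (30.1%, beside 16.8% of all genes), of which 17 were higher (9.28% of all genes) and 5 lower (7.47% of all genes). With miR-210-3p 8 members were called (11%, beside 6.05%), 6 higher (3.85% of all genes) and 2 lower (2.2%). With miR-874-3p a single member, IL6, was called (1.37%, beside 0.423%), and it was lower (0.207% of all genes). An unadjusted p under 0.05 with a change of at least 2-fold, the rule of the study with limma's p, was met by 9 members with miR-629-3p (5.26% of all genes), 4 for miR-210-3p (3.14%) and 2 for miR-874-3p (2.02%). IL36G, below background with miR-874-3p and NC, was among the 9 and among the 2. The median log2 change of the 73 was 0.18 with miR-629-3p (all genes 0.02), 0.04 for miR-210-3p (all genes 0.05) and -0.03 for miR-874-3p (all genes -0.01). These 3 comparisons share the NC arrays. IL36G, counted among the higher members for both miR-629-3p and miR-210-3p, passed the detection rule only through the miR-629-3p arrays, and without it 21 (16 higher) and 7 (5 higher) remained. The 22 calls with miR-629-3p fell to 8 and 7 when its array 1 or 2 was left out and to 9 without NC array 2. With miR-210-3p the 8 calls fell to between 1 and 3 when any array other than those of miR-874-3p was left out.

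**Figure D1:**
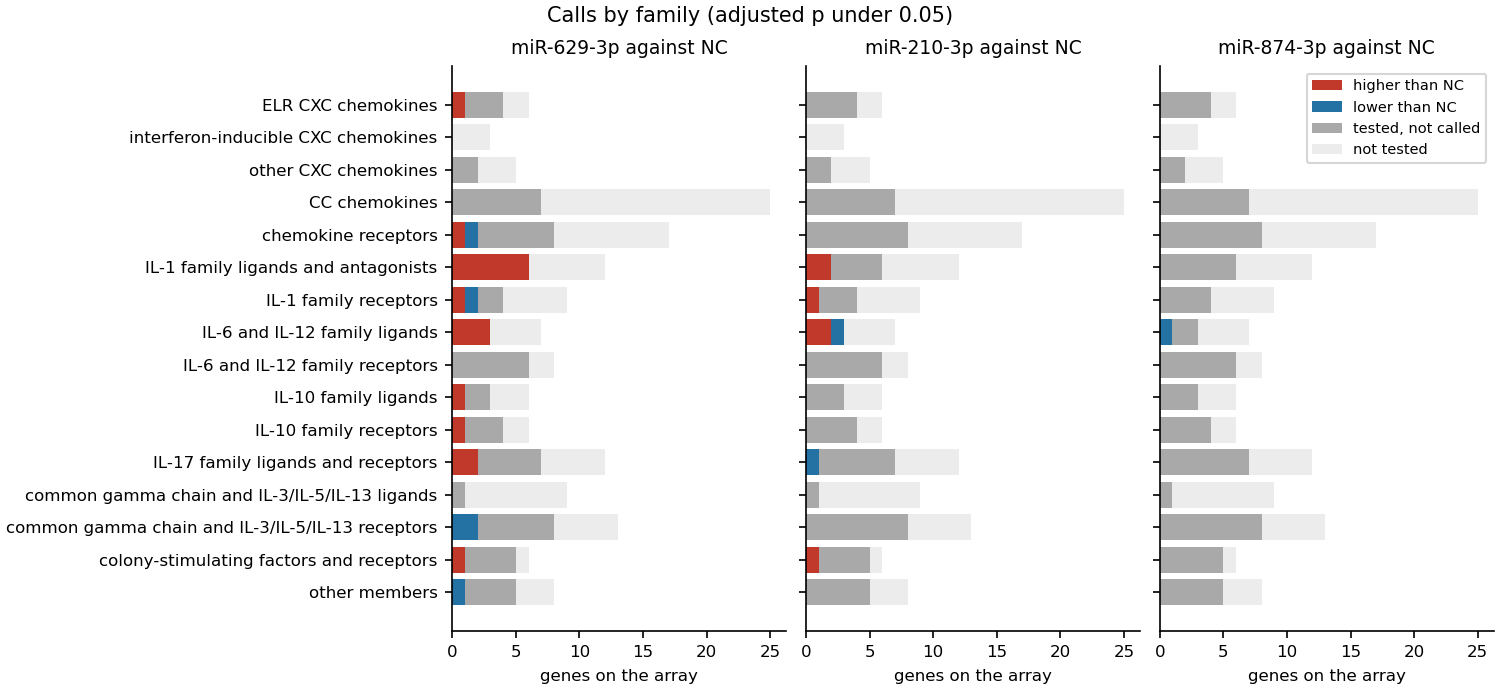
Calls against NC by family. Bars give the number of genes of each family on the array (x axis), split into higher, lower, tested without a call and not tested, for the 3 miRNAs. With miR-629-3p the 6 tested IL-1 family ligands and antagonists stand as higher, 1 of them (IL36G) tested only through its detection there, while 1 of 13 tested chemokines was called.

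Of the 12 IL-1 family ligands and antagonists on the array 6 were tested. With miR-629-3p IL1A, IL1B, IL1RN, IL18 and IL37 were higher, 5 of 5 (beside 9.28% of all genes) with a median log2 change of 1.00. IL36G entered the test only through its detection there. With miR-210-3p IL37 was higher. For miR-874-3p limma called none, with 2 higher and 1 lower at an unadjusted p under 0.05. IL36G, below background with miR-874-3p and NC, was among the 2. IL1B encodes the secreted proinflammatory cytokine IL-1β. Its log2 levels were 6.26 and 6.05 in NC cells, 7.42 and 7.36 with miR-629-3p, 6.10 and 6.16 for miR-874-3p, and 6.37 and 6.30 for miR-210-3p. The 2 miR-629-3p arrays stood above the other 6, which lay within a narrow band. The log2 change against NC was 1.24 ± 0.09 (SE, adjusted p = 0.00368), 2.36-fold, and 0.18 ± 0.09 for miR-210-3p and -0.03 ± 0.09 for miR-874-3p, neither called. The IL1B probe lies at chr2:113587429-113587488 (hg19, the build of all probe positions here).

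IL1A encodes IL-1α, which is held inside the keratinocyte and released on damage. Its levels were 2.28 and 2.44 in NC cells, 3.41 and 3.42 with miR-629-3p, 2.05 and 1.73 for miR-874-3p, and 2.18 and 2.36 for miR-210-3p. Both miR-629-3p arrays lay above every other array, and the change against NC was 1.06 ± 0.13 (SE, adjusted p = 0.00976). IL18, another ligand kept as an inactive precursor in epithelium, read 1.64 and 1.57 in NC cells, 2.59 and 2.50 with miR-629-3p, 1.58 and 1.64 for miR-874-3p, and 1.45 and 1.40 for miR-210-3p. Here too the miR-629-3p arrays stood apart, with a change of 0.94 ± 0.07 (SE, adjusted p = 0.00371), and the other 3 groups lay between 1.40 and 1.64. IL1RN, the secreted antagonist of the IL-1 receptor, was at -0.32 and -0.54 in NC cells, 0.51 and 0.62 with miR-629-3p, -0.50 and -0.23 for miR-874-3p, and -0.62 and -1.07 for miR-210-3p. With miR-629-3p it rose 2-fold (adjusted p = 0.0218), although its second probe, which is dimmer, gave -0.78 (adjusted p = 0.437) and read -0.85 and -2.67 on the 2 NC arrays.

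IL37 encodes a family member known to dampen inflammation. Its levels of 0.18 and -0.08 in NC cells, 0.72 and 0.79 with miR-629-3p, 0.38 and 0.41 for miR-874-3p, and 0.91 and 0.77 for miR-210-3p placed miR-629-3p and miR-210-3p together above NC, with changes of 0.71 ± 0.11 (SE, adjusted p = 0.0147) and 0.79 ± 0.11 (SE, adjusted p = 0.0214). IL36G, an epithelial agonist of the IL-36 receptor, was detected on both miR-629-3p arrays and on no other array. Its measured levels of -4.80 and -4.73 in NC cells, -3.13 and -2.89 with miR-629-3p, -3.52 and -3.38 for miR-874-3p, and -3.98 and -3.56 for miR-210-3p all lay below the dimmest detectable signal on the NC arrays (-2.84 and -2.82), so no fold change and no test is given. With each level floored at the dimmest detectable signal of its own array the sign turned, to -0.18 for miR-629-3p and -0.57 for miR-210-3p. These limits were lower on the miR-629-3p (-3.74 and -3.59) and miR-210-3p arrays (-3.39 and -3.42) than on the NC arrays. The floored values therefore give no direction for IL36G. Apart from IL18 on chromosome 11, the probes of these genes lie in one stretch of chromosome 2 (chr2:113532362-113891590), and IL36A, IL36B, IL36RN and IL1F10, also of the family, were not tested. Against miR-210-3p on the same slide row, IL1A (1.15 ± 0.13), IL1B (1.05 ± 0.09), IL1RN (1.41 ± 0.18) and IL18 (1.12 ± 0.07) were also higher with miR-629-3p (adjusted p = 0.00623, 0.00396, 0.00754 and 0.00216).

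**Figure D2:**
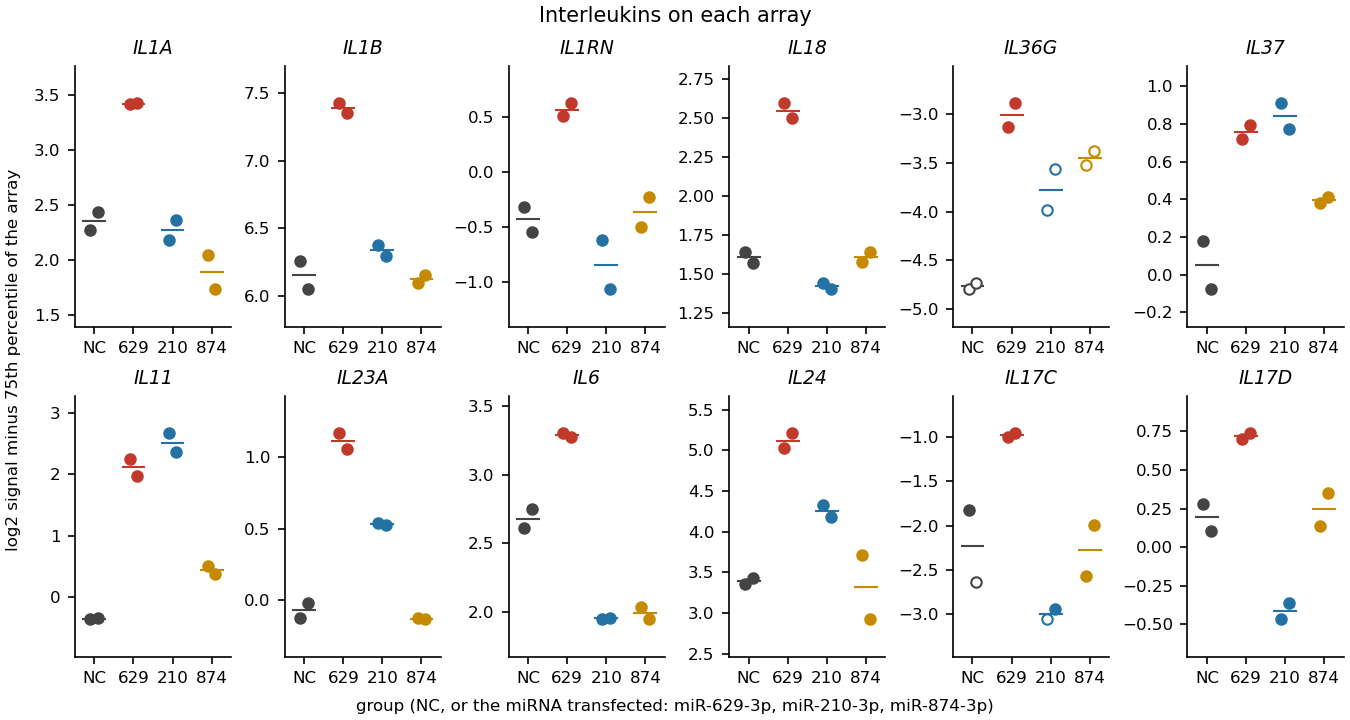
Log2 level (signal minus the 75th percentile of the array) of 12 interleukin genes on each of the 8 arrays, with 2 points a group, the line at their mean, and open points where the probe was not well above background. Each panel has its own scale. All 12 are members called higher with miR-629-3p, so its points lie above the NC points in every panel by that choice. For IL36G the NC points are below background. IL11 and IL37 are raised with miR-210-3p as well, while IL6 and IL17D are lowered.

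Among the receptors of the family 1 was lower and 1 higher with miR-629-3p, of 4 tested (25% each, beside 7.47% and 9.28% of all genes). IL1RAP, the accessory chain needed for signalling by IL-1, IL-33 and IL-36, read 1.81 and 2.0 in NC cells, 0.79 and 0.87 with miR-629-3p, 1.38 and 1.51 for miR-874-3p, and 1.69 and 1.73 for miR-210-3p. It was lowest on the 2 miR-629-3p arrays, with a change of -1.08 ± 0.09 (SE, adjusted p = 0.00527), and its second detected probe, at chr3:190347694-190347753, also fell (-0.82, adjusted p = 0.0324). With miR-874-3p the change was -0.46 ± 0.09 (adjusted p = 0.12) and with miR-210-3p -0.20 ± 0.09 (adjusted p = 0.256). IL1RAPL1, a related membrane protein known from neurons, was higher with miR-629-3p (0.72 ± 0.08, SE, adjusted p = 0.00743) and for miR-210-3p (0.66 ± 0.08, SE, adjusted p = 0.0166), and its miR-874-3p levels of 3.24 and 3.09 overlapped the NC levels of 3.20 and 3.22. The IL-33 receptor IL1RL1 (0.63 ± 0.41 with miR-629-3p) and the IL-18 receptor chain IL18RAP (0.12 ± 0.11) were not called in any comparison with NC, and the remaining 5 receptors of the family were not tested.

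IL11, a gp130 cytokine of epithelial and stromal cells, showed the largest rise of all called members, under miR-629-3p as well as under miR-210-3p. Its log2 levels were -0.37 and -0.34 in NC cells, 2.26 and 1.97 with miR-629-3p, 0.51 and 0.37 for miR-874-3p, and 2.66 and 2.37 for miR-210-3p, from a probe at chr19:55875788-55875847. No 2 groups overlapped, and the order from the top was miR-210-3p, then miR-629-3p, then miR-874-3p, then NC. The changes against NC were 2.47 ± 0.14 (SE, adjusted p = 0.00174) with miR-629-3p, 5.52-fold, and 2.87 ± 0.14 (SE, adjusted p = 0.00375) with miR-210-3p, 7.31-fold. With miR-874-3p the change of 0.80 ± 0.14 was not called (adjusted p = 0.0936). Between miR-629-3p and miR-210-3p the difference of -0.40 ± 0.14 was not called either (adjusted p = 0.0985), whereas both were higher than miR-874-3p, by 1.67 ± 0.14 (SE, adjusted p = 0.00456) and 2.07 ± 0.14 (SE, adjusted p = 0.00437).

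IL23A, the p19 subunit of IL-23, was graded. It read -0.12 and -0.02 in NC cells, 1.16 and 1.06 with miR-629-3p, -0.13 and -0.13 for miR-874-3p, and 0.54 and 0.52 for miR-210-3p. The miR-629-3p arrays were highest, the miR-210-3p arrays intermediate, and the miR-874-3p arrays next to the NC arrays. The changes were 1.18 ± 0.08 (SE, adjusted p = 0.0024) and 0.60 ± 0.08 (SE, adjusted p = 0.0177), and miR-629-3p exceeded miR-210-3p by 0.58 ± 0.08 (SE, adjusted p = 0.00763). The IL23A call with miR-210-3p was lost in 11 of 22 alternatives. IL6, the prototype of its family and an acute-phase inducer, moved in opposite directions. Its used probe at chr7:22771207-22771266 read 2.61 and 2.75 in NC cells, 3.30 and 3.28 with miR-629-3p, 2.04 and 1.94 for miR-874-3p, and 1.94 and 1.96 for miR-210-3p. Levels rose by 0.61 ± 0.08 (SE, adjusted p = 0.0105) with miR-629-3p, and fell for miR-210-3p (-0.73 ± 0.08, SE, adjusted p = 0.0129) and for miR-874-3p (-0.69 ± 0.08, SE, adjusted p = 0.0442). The 4 arrays of the last 2 miRNAs overlapped each other and lay below NC. The IL6 call with miR-874-3p was lost in 15 of 23 alternative settings. None of the 6 tested receptor chains of these families was called against NC, among them IL6ST (gp130) at 0.24 ± 0.14 with miR-629-3p and IL6R at 0.91 ± 0.25 with miR-210-3p, although IL6R was higher with miR-210-3p than with miR-874-3p (1.27 ± 0.25, SE, adjusted p = 0.0359). At an unadjusted p under 0.05 in limma, 1 of the 6 was higher with miR-210-3p and none was lower, and the methods' t-test called no member against NC after adjustment.

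Several of the genes that rose share a short element near their start. The promoters were read from RefSeq (GRCh38.p14, 250 bases before to 50 after each start site) and searched for TGANTCA, which reads the same on both strands. This pattern takes any middle base, so it is wider than the AP-1 core, whose middle base is C or G, and the counts here are of the pattern. It was present in 7.71% of all 35116 promoter windows, in at least 1 window of 9.37% of 27305 genes, and in 14 of the 57 tested members with a window (24.6%). Of the 14 members higher with miR-629-3p that have a window, IL36G counted among them, 6 held it (42.9%), and of the 5 lower members none did. The windows of 5 of the 6 are shown with the core in capitals, IL11, with the largest rise, among them, and all 5 have C or G in the middle. The sixth, IL17D, matched only with T or A as the middle base and is not shown. The match is a description of the letters and not of a bound site.
IL11, chr19:55370542-55370570, minus strand: ggcagggagggTGAGTCAggatgtgtcag
IL23A, chr12:56338796-56338824, plus strand: cccacctgctgTGAGTCAcctgctggtat
IL1A, chr2:112784488-112784516, minus strand: gcgaagaagacTGACTCAggcttaagctg
IL1RN, chr2:113117737-113117765, plus strand: ttctgctagccTGAGTCAccctcctggaa
CXCL8, chr4:73740421-73740449, plus strand: aggaagtgtgaTGACTCAggtttgccctg

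The first 2, from the promoters of IL11 and IL23A, belong to the members higher than NC with both miR-629-3p and miR-210-3p, which shared a slide row. Their cores start at positions -96 and -77 from the annotated start. The core starts at -12 in IL1A, where a further copy lies downstream, at -223 in IL1RN and at -137 in CXCL8. Of the 6 members higher with miR-210-3p that have a window, IL36G again counted, 2 held the pattern. Of the 2 lower members 1 did, IL17D, with T or A as the middle base.

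Of the IL-10 family, IL24, a cytokine of the IL-20 subgroup that signals to keratinocytes, rose with miR-629-3p. Its levels were 3.36 and 3.43 in NC cells, 5.02 and 5.21 with miR-629-3p, 3.71 and 2.92 for miR-874-3p, and 4.33 and 4.18 for miR-210-3p. The order was miR-629-3p, miR-210-3p, then NC and miR-874-3p, whose arrays overlapped. The change was 1.72 ± 0.25 (SE, adjusted p = 0.0137), 3.3-fold, and 0.86 ± 0.25 with miR-210-3p (adjusted p = 0.105). A second IL24 probe gave 1.27 with miR-629-3p (adjusted p = 0.0617). IL20RB, the receptor chain shared by IL-19, IL-20 and IL-24, read 2.91 and 3.03 in NC cells, 3.95 and 3.74 with miR-629-3p, 3.20 and 3.52 for miR-874-3p, and 2.64 and 2.59 for miR-210-3p. The miR-629-3p arrays were above all others, with a change of 0.87 ± 0.13 (SE, adjusted p = 0.0148). It was -0.35 ± 0.13 with miR-210-3p (adjusted p = 0.174), and the difference between these 2 miRNAs, 1.23 ± 0.13 (SE, adjusted p = 0.00548), was called. The partner chains IL20RA (0.97 ± 0.36), IL22RA1 (-0.14 ± 0.11) and IL10RB (0.14 ± 0.15) were not called with miR-629-3p.

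Among the IL-17 family, 2 of 7 tested members rose with miR-629-3p (28.6%, beside 9.28% of all genes). IL17C, made by epithelial cells, read -1.83 and -2.63 in NC cells, -1.01 and -0.96 with miR-629-3p, -2.57 and -1.99 for miR-874-3p, and -3.06 and -2.94 for miR-210-3p. Its probe was detected on only 1 of 2 NC arrays and 1 of 2 miR-210-3p arrays. The miR-629-3p arrays were the highest 2, with a change of 1.24 ± 0.30 (SE, adjusted p = 0.0453), a call lost in 8 of 21 alternatives. IL17D, an epithelial and stromal relative, read 0.28 and 0.11 in NC cells, 0.70 and 0.74 with miR-629-3p, 0.14 and 0.35 for miR-874-3p, and -0.47 and -0.37 for miR-210-3p. The miR-874-3p and NC arrays overlapped, with miR-629-3p above and miR-210-3p below them. IL17D and IL6 were the members called in opposite directions, IL17D by 0.52 ± 0.11 (SE, adjusted p = 0.0294) with miR-629-3p and -0.61 ± 0.11 (SE, adjusted p = 0.0372) with miR-210-3p. These 2 IL17D calls were lost in 10 and 11 of 22 alternatives. The receptor chains showed no call against NC, IL17RA being at -0.46 ± 0.12 with miR-629-3p (adjusted p = 0.0525) and IL17RD at -0.47 ± 0.17 (adjusted p = 0.122). IL17RD was lower with miR-629-3p than with miR-210-3p (-0.73 ± 0.17, SE, adjusted p = 0.0359).

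Of 8 tested receptor chains of the IL-2 and IL-4 group 2 fell with miR-629-3p (25%, beside 7.47% of all genes). Limma called none of the group higher (9.28% of all genes), with 1 receptor and the ligand IL15 higher at an unadjusted p under 0.05. IL7R, the IL-7 and TSLP receptor chain, read 5.41 and 5.62 in NC cells, 4.89 and 4.86 with miR-629-3p, 5.65 and 5.43 for miR-874-3p, and 5.36 and 5.35 for miR-210-3p. Both miR-629-3p arrays were below all others, and the change was -0.64 ± 0.11 (SE, adjusted p = 0.0183). IL13RA1, which pairs with IL4R to bind IL-4 and IL-13, read 3.58 and 3.70 in NC cells, 3.26 and 3.18 with miR-629-3p, 3.19 and 3.18 for miR-874-3p, and 3.84 and 3.84 for miR-210-3p. It was lower with miR-629-3p (-0.42 ± 0.07, SE, adjusted p = 0.0211), while with miR-874-3p the equally low levels gave -0.45 ± 0.07 (adjusted p = 0.0838), and miR-210-3p lay above both (-0.62 ± 0.07 for miR-629-3p against it, adjusted p = 0.0066). IL4R was not called against NC (-0.16 ± 0.07 with miR-629-3p) but was higher with miR-210-3p than with miR-629-3p or miR-874-3p. IL15, the only tested ligand of the group, was at 0.55 ± 0.22 (adjusted p = 0.144).

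**Figure D3:**
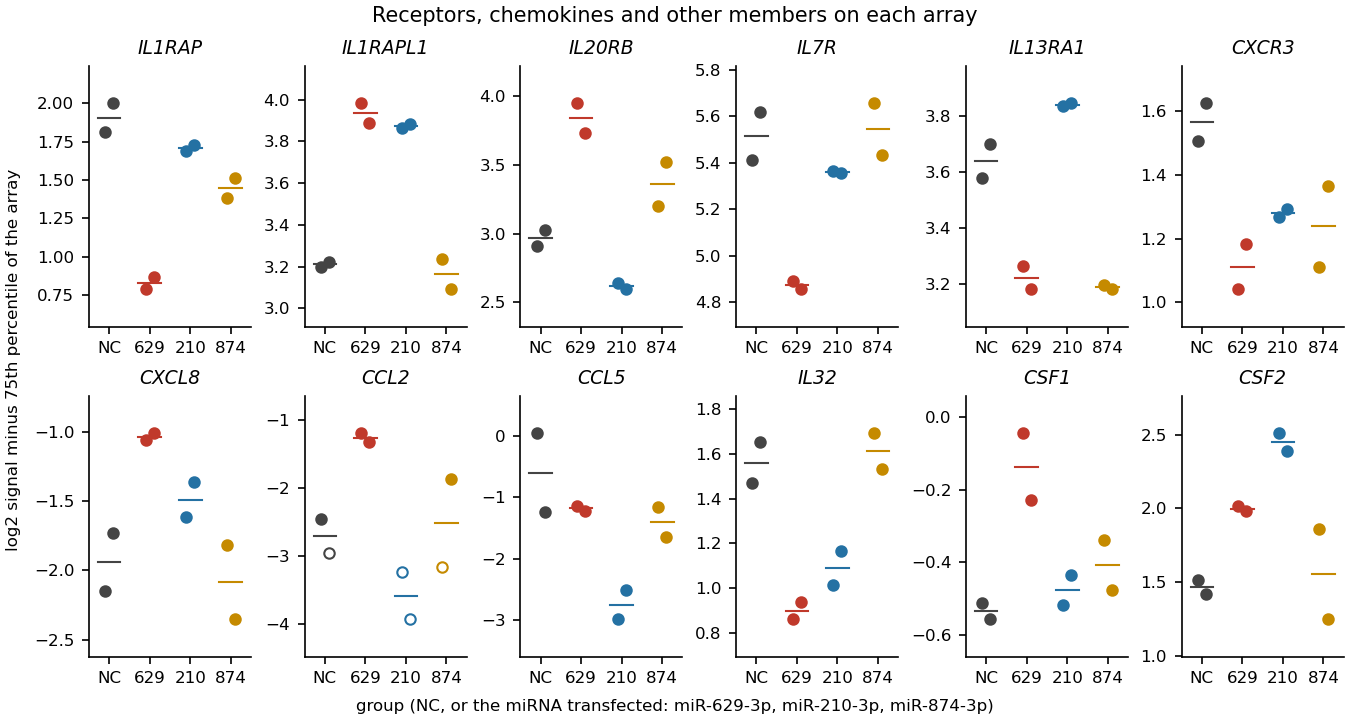
Log2 level (signal minus the 75th percentile of the array) of 12 receptors, chemokines and other members on each of the 8 arrays, with 2 points a group, the line at their mean, and open points where the probe was not well above background. Each panel has its own scale. IL1RAP, IL7R and IL32 are lowest with miR-629-3p, and the 2 NC points of CCL5 lie far apart.

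IL32, a cytokine of epithelial and immune cells, read 1.47 and 1.65 in NC cells, 0.86 and 0.94 with miR-629-3p, 1.69 and 1.53 for miR-874-3p, and 1.01 and 1.17 for miR-210-3p. With miR-629-3p it fell (-0.66 ± 0.11, SE, adjusted p = 0.0168), as did its second probe (-0.67, adjusted p = 0.00975). With miR-210-3p the used probe was at -0.47 ± 0.11 (adjusted p = 0.0644), while the second was called lower (-0.64, adjusted p = 0.0197). Of the colony-stimulating factors, CSF1, the macrophage growth factor, was higher with miR-629-3p by 0.40 ± 0.10 (SE, adjusted p = 0.0438), a call lost in 13 of 22 alternatives. CSF2, which encodes GM-CSF, read 1.51 and 1.42 in NC cells, 2.02 and 1.98 with miR-629-3p, 1.86 and 1.25 for miR-874-3p, and 2.51 and 2.39 for miR-210-3p, and its change of 0.98 ± 0.20 (SE, adjusted p = 0.0493) with miR-210-3p was lost in 14 of 22. CSF3, which encodes G-CSF, was not called (-0.68 ± 0.43 with miR-629-3p).

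Of 39 chemokines 24 were detected on at least 1 array and 15 on none, and 13 were tested. With miR-629-3p 1 of the 13 was higher (7.69%, beside 9.28% of all genes) and none lower (7.47% of all genes), and it was CXCL8, the neutrophil attractant IL-8. Its levels were -2.15 and -1.73 in NC cells, -1.06 and -1.01 with miR-629-3p, -1.82 and -2.35 for miR-874-3p, and -1.61 and -1.37 for miR-210-3p, so that the miR-629-3p arrays were the highest 2, and the change was 0.90 ± 0.22 (SE, adjusted p = 0.048), which lost its call in 12 of 22 alternatives. No chemokine was called with miR-210-3p (6.05% of all genes) or miR-874-3p (0.423%) by limma, with 2 lower in each at an unadjusted p under 0.05. The median change of the 13 was 0.01 with miR-629-3p (all genes 0.02), 0.04 for miR-210-3p and -0.13 for miR-874-3p. The other neutrophil attractants were CXCL1 at -0.22 ± 0.24, CXCL2 at -0.44 ± 0.22 and CXCL5 at 0.28 ± 0.08 with miR-629-3p, none of them called, so CXCL8 alone of the 4 tested ELR chemokines passed. CXCL2 was higher with miR-210-3p than with miR-874-3p (1.01 ± 0.22, SE, adjusted p = 0.0478).

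CCL5, a T-cell attractant, read 0.05 and -1.24 in NC cells, -1.13 and -1.22 with miR-629-3p, -1.15 and -1.65 for miR-874-3p, and -2.99 and -2.52 for miR-210-3p. The NC arrays lay far apart and the miR-210-3p arrays were below all others, with a change of -2.16 ± 0.44 (adjusted p = 0.0503) that missed the threshold. CCL2, the monocyte attractant, read -2.46 and -2.96 in NC cells, -1.19 and -1.32 with miR-629-3p, -3.16 and -1.86 for miR-874-3p, and -3.24 and -3.93 for miR-210-3p. It was detected on both miR-629-3p arrays, on 1 array each of miR-874-3p and NC and on neither of miR-210-3p. Within the slide row it was at least 4.19-fold higher with miR-629-3p than with miR-210-3p, with no test since it passed the detection rule only through the miR-629-3p arrays. The bound sets the mean of the miR-629-3p arrays against the dimmest detectable signal of each miR-210-3p array or the probe's own level if higher. Against NC its change of 1.45 ± 0.47 was not called (adjusted p = 0.0911). CCL20, a ligand of CCR6, was at -0.68 ± 0.30 with miR-629-3p and -0.06 ± 0.30 for miR-210-3p, and CXCL16 at 0.01 ± 0.12 and 0.25 ± 0.12, none of them called. CCL24 showed little spread on any array, between 4.44 and 4.62.

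Of 17 chemokine receptors 8 were tested, and with miR-629-3p 1 was higher and 1 lower (12.5% each, beside 9.28% and 7.47% of all genes). CCR6 was higher with miR-629-3p (0.22 and 0.43 against -0.18 and -0.15 with NC), a change of 0.49 ± 0.09 (SE, adjusted p = 0.0247), and CXCR3, the receptor of the interferon-inducible CXC chemokines, was lower (1.04 and 1.18 against 1.51 and 1.62), a change of -0.45 ± 0.11 (SE, adjusted p = 0.0467). Both were small and were lost in 9 and 13 of 22 alternatives. CCR7 had levels of -1.38 and 0.15 on the 2 miR-629-3p arrays, so that its mean change of 1.18 ± 0.48 rested on 1 array and was not called. No chemokine receptor was called with miR-210-3p or miR-874-3p in limma, where 2 and 1 were higher and 2 in each were lower at an unadjusted p under 0.05.

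**Figure D4:**
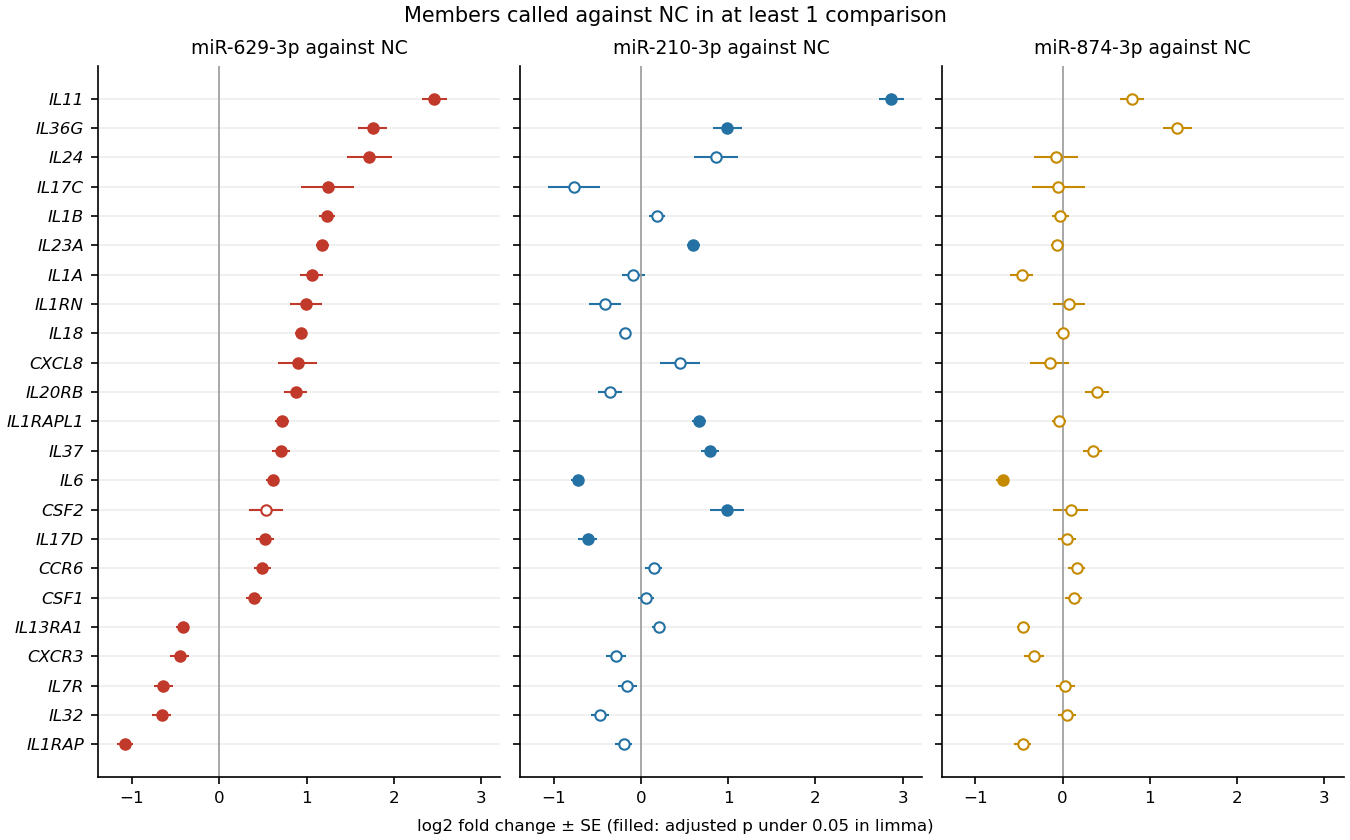
Log2 fold change with its SE (x axis) against NC for the 23 members called in at least 1 of the 3 comparisons, ordered by the miR-629-3p change, with filled points for adjusted p under 0.05. IL36G is drawn on measured levels below background in NC and passed the detection rule only through the miR-629-3p arrays. Its points are therefore no test, and the text gives no fold change for it. IL11 has the largest change for miR-629-3p (2.47) as for miR-210-3p (2.87), and IL6 is the single filled point with miR-874-3p (-0.69).

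The miRNAs were also compared with each other. Between miR-629-3p and miR-210-3p, within a slide row, 18 members were called (24.7%, beside 22.6% of all genes), 13 higher (9.83% of all genes) and 5 lower (12.7%) with miR-629-3p, and 14 met the 2-fold rule (5.61%). The higher ones included IL6 (1.34 ± 0.08), IL17C (2.01 ± 0.30), IL17D (1.14 ± 0.11), IL20RB, IL1A, IL1B, IL1RN and IL18, and the lower ones IL1RAP (-0.88 ± 0.09), IL13RA1, IL17RD, IL7R and IL4R. Between miR-629-3p and miR-874-3p 16 were called (21.9%, beside 16.2%), 12 higher (9.34%) and 4 lower (6.88%), and 12 met the 2-fold rule (5.14%), with IL11, IL24 (1.80 ± 0.25), IL6 and CXCL8 (1.05 ± 0.22) among the higher. When miR-210-3p was set against miR-874-3p, 12 were called (16.4%, beside 9.8%), 8 higher (6.33%), IL11 and IL6R among them, and 4 lower (3.47%), and 5 met the 2-fold rule (3.76%). The antisense transcript IL10RB-AS1 was detected on both miR-874-3p arrays and on no array of miR-629-3p or miR-210-3p, and was at least 5.38-fold and 4.48-fold higher there, with 1 of 2 NC arrays also detecting it. It passed the detection rule only through miR-874-3p, and so has no test here. Without such members the 18, 16 and 12 calls were 16 (CCL2 and IL36G left out), 15 and 11 (IL10RB-AS1 left out).

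For some genes the probes disagreed. In 16 of the tested genes 25 further probes passed the detection rule, and the sign of their change against NC was that of the used probe for 13 of 25 with miR-629-3p and for 18 of 25 with each of the other miRNAs. IL6 showed the widest gap. Its second probe lies at chr7:22769363-22769422, at lower coordinates than the used one, and read -5.06 and -5.03 in NC cells, -5.91 and -4.76 with miR-629-3p, -0.46 and -0.64 for miR-874-3p, and -5.53 and -5.59 for miR-210-3p. It was well above background only on the 2 miR-874-3p arrays, and there it was at least 4.87-fold higher than in NC cells. No test is given, since it passed the detection rule only through these arrays. The log2 change of the used probe was -0.69. Its raw mean signal was 83.8 and 73.4 where miR-874-3p was transfected and 21.0 to 24.6 on the other 6 arrays, above a local background of 19 to 20. The pixels of these 2 spots varied widely, with an SD of 0.85 and 0.619 times the mean, where spots of 50 to 100 units of mean signal had a median of 0.249 and 0.245, and 1.16% and 5.19% of them varied as much. Neither spot carried the outlier flag, and the part of this unevenness in the value was not tested.

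**Figure D5:**
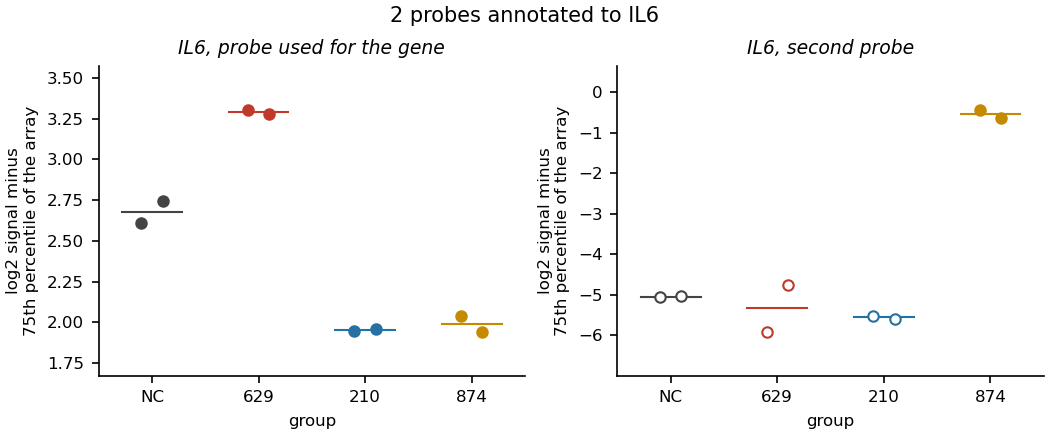
Log2 level (signal minus the 75th percentile of the array) of the 2 IL6 probes on each array, with 2 points a group, the line at their mean, and open points where the probe was not well above background. On the used probe the miR-874-3p arrays (2.04 and 1.94) lie below NC, and on the second probe (-0.46 and -0.64) they lie above every other array.

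Genes of the signalling pathways behind these receptors were read alongside, from lists taken by function. Genes of these lists that changed under 2-fold are named after their values were seen. Of 20 NF-κB subunits, inhibitors and feedback genes, all tested, 5 were higher with miR-629-3p (25.0%, beside 9.28% of all genes) and 2 lower (10.0%, beside 7.47%), with a median change of 0.18 (all genes 0.02). The feedback inhibitor TNFAIP3 (A20) rose by 1.12 ± 0.23 (SE, adjusted p = 0.0303), the inhibitor NFKBIA by 0.56 ± 0.12 (SE, adjusted p = 0.0297) and BIRC3 by 0.80 ± 0.12 (SE, adjusted p = 0.0135). The adaptor TRAF1, counted among the 5 and in their share, was at least 2.49-fold higher but passed the detection rule only through miR-629-3p. TNIP1 fell (-0.57 ± 0.08, SE, adjusted p = 0.0137). With miR-210-3p limma called 2 higher (10.0%, beside 3.85%) and none lower (2.2% of all genes), with 3 lower at an unadjusted p under 0.05. Of 17 tested IL-1 and Toll receptor signalling genes, 2 were higher and 2 lower with miR-629-3p (11.8% each, beside 9.28% and 7.47% of all genes), the lower ones being CASP1 (-0.53 ± 0.07, SE, adjusted p = 0.0123), the protease that matures IL-1β and IL-18, and its adaptor PYCARD (-0.46 ± 0.08, SE, adjusted p = 0.0201). With miR-210-3p 4 were higher (23.5%, beside 3.85%) and 1 lower (5.88%, beside 2.2%), among them the sensor NLRP3, at least 3.18-fold higher but tested only through its detection there, and CASP1 again lower (-0.71 ± 0.07, SE, adjusted p = 0.0122).

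Among 21 tested JAK, STAT and SOCS genes 5 were higher (23.8%, beside 9.28% of all genes) and 1 lower (4.76%, beside 7.47%) with miR-629-3p. The suppressors SOCS2 (0.83 ± 0.08, SE, adjusted p = 0.00569) and SOCS5 (0.87 ± 0.16, SE, adjusted p = 0.0225) were among those that rose, and STAT6, which acts downstream of IL4R and IL13RA1, fell (-0.48 ± 0.07, SE, adjusted p = 0.0155). STAT6 and STAT4 were lower with miR-210-3p. SOCS3, an IL-6 feedback inhibitor, was the only gene of the list called with miR-874-3p (-0.65 ± 0.07, SE, adjusted p = 0.0424). Related ligands and receptors outside the naming rule gave 1 higher (CLCF1, 7.14%, beside 9.28%) and 2 lower (14.3%, beside 7.47%) of 14 with miR-629-3p, the lower ones being LTB (-1.07 ± 0.08, SE, adjusted p = 0.00339), which encodes lymphotoxin β, and the gp130 partner LIFR (-0.71 ± 0.11, SE, adjusted p = 0.0159), which was higher with miR-210-3p (0.81 ± 0.11, SE, adjusted p = 0.0228). Of 25 interferon response genes 8 were higher (32.0%, beside 9.28% of all genes) and none lower with miR-629-3p. For miR-210-3p 10 were called lower (40.0%, beside 2.2% of all genes) and none higher, 1 of the 10 (IFI44L) being below background in both groups, so that 9 were measured. The directions with none had none in limma at an unadjusted p under 0.05 either. With miR-874-3p limma called none of the 25 (0.423% of all genes). At an unadjusted p under 0.05 in limma 10 were lower and none higher there, with a median change of -0.29 (all genes -0.01). CXCL9, CXCL10 and CXCL11, the chemokines of that response, were each detected on at most 1 array.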

How the data were processed

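Total RNA (100 ng) of 8 SAS samples was labelled and hybridised to 1-colour Agilent human expression arrays. The deposited scanner files hold spot intensity, which the authors extracted with Agilent Feature Extraction 11.5.1.1 (per the submitters' processing notes) and corrected for background (the processed signal). The deposited value table holds log2 values scaled by the authors, and it served as an alternative. Of the scanner files, log2 of the processed signal was averaged per probe without outlier-flagged spots, and each array's 75th percentile over 58201 gene probes was subtracted. No spot was saturated, and 42.2% to 49.8% of the gene probes were well above background per array. The number of arrays limits the precision.

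Probes were kept as the report states, and limma 3.58.1 in R 4.3.3 was fitted over the 4 groups and 21283 genes, with 4 residual degrees of freedom and Benjamini-Hochberg adjustment. The fit was tested on simulated data. The study's own rule was a t-test or ANOVA with a fold limit, and was run as an alternative. A fold for a gene not above background in the dimmer group was given as a bound or left out. Extraction kits differ between the labels and the methods, and the NC and the mimics came from different makers.

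Members, families, pathways and markers were chosen with earlier results of these data known. Named members were those called with at least a 2-fold change against NC and a list common in squamous carcinoma. IL37, IL1RAPL1, IL17D, CCR6, CXCR3, CCR7, CCL24, IL17RD, IL1RL1, IL18RAP, IL20RA, IL36A, IL36B, IL1F10, CXCL9, IL4I1, IL10RB-AS1 and IL21R-AS1 were named after their values were seen. Sequences are from RefSeq. Some genes of the pathway and marker lists are not reported here by name.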

Additional observations from a re-analysis of the deposited data

Results flagged for a closer look

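Probes other than the one used for a gene were read separately. The second IL6 probe was at least 4.87-fold higher with miR-874-3p than with NC, whose arrays did not detect it. It passed the detection rule only through miR-874-3p, so no test is given. The second IL32 probe was lower with miR-210-3p than with NC (-0.64, adjusted p = 0.0197 in limma), where the used IL32 probe gave -0.47 and was not called.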

How the results depend on the processing

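With 2 arrays a group the counts of called members moved with the fit. Without the detection filter, members that it had left out were tested too, so those counts come from a larger set. The share of all genes called is not given for these alternatives or with an array left out. The counts therefore describe the fits and not the members alone. Against NC the count with miR-629-3p was 22, and it was 44 without the detection filter, 0 by the methods' t-test after adjustment (26 at an unadjusted p under 0.05, beside 32 in limma) and 9 by an unadjusted p with 2-fold. With miR-210-3p the count of 8 became 1 without the filter, 1 with only the compared groups, 5 with the replicate block, 0 by the t-test (19 unadjusted, beside 24) and 4 by the 2-fold rule. With miR-874-3p the count of 1 became 3 with normexp, 3 with an eBayes trend, 2 by the 2-fold rule, and 0 without the filter, with only the compared groups, with the replicate block, with the crossed block (chosen after seeing the data) and by the t-test (7 unadjusted, beside 17). Between miR-629-3p and miR-210-3p the 18 became 28 with only the compared groups and 7 by the t-test. Between miR-629-3p and miR-874-3p the 16 became 33 without the filter, 5 with only the compared groups and 0 by the t-test. Between miR-210-3p and miR-874-3p the 12 became 2, 0, 4 and 0 without the filter, with only the compared groups, with the block and by the t-test, and 5 by the 2-fold rule. Among the 4 groups the 23 became 15 by ANOVA and 37 by an unadjusted p. The cause was not tested.

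Leaving out 1 array gave 7 to 28 members for miR-629-3p against NC, 1 to 12 for miR-210-3p, 0 to 2 for miR-874-3p, 9 to 28 for miR-629-3p against miR-210-3p, 7 to 22 for miR-629-3p against miR-874-3p, 1 to 14 for miR-210-3p against miR-874-3p and 7 to 32 among the groups. The 28 came without either miR-874-3p array, and the lowest counts without an array of miR-629-3p or miR-210-3p, or for miR-874-3p also of NC. Where 1 array of a group was left, its spread was taken from the remaining groups.

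Of 31 called changes against NC, 29 kept their call with normexp, 30 with quantile normalization and 30 with the deposited table. IL36G turned sign under the floor, to -0.57 with miR-210-3p and -0.18 with miR-629-3p. That floor was set for each array and lay higher on the NC arrays, so these values give no direction. Same-numbered arrays did not deviate together (r from -0.106 to 0.034), so the numbers do not pair them, and 22 of 31 calls stayed with the replicate block. A slide block was not run, since there was 1 slide.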
